A study of Homo sapiens with 20 samples.

Results

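CTCF sites of moderate strength that had no peak left in LNCaP prostate cancer cells after CTCF siRNA, but still had one in IMR90 lung fibroblasts, numbered 6402 of the 33377 sites bound in control LNCaP cells (19.2%). Overlapping peaks of the 2 LNCaP control siRNA libraries were merged on chromosomes 1 to 22 and X, and a site needed a peak in both. The strength of a site was the mean over the 2 libraries of the largest fold enrichment in it, where fold enrichment is the ratio of ChIP-seq signal to local background given by the peak caller. Members had a strength below 20, no peak in either LNCaP CTCF siRNA library, and a peak in both control and both CTCF siRNA libraries of IMR90 cells profiled with the standard protocol. The members were thus chosen by the fold enrichment and the peak calls of these 8 libraries, whose values at the members are given as a description with no test.

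LNCaP is a prostate cancer cell line and IMR90 a line of normal lung fibroblasts. Both received 20 nM of pooled non-targeting control or pooled CTCF siRNA and were collected at 144 h. LNCaP cells were transfected again midway, and Lipofectamine RNAiMAX is the reagent stated for IMR90. The siRNA lowers CTCF and does not delete it. The paper reports a deeper loss of CTCF mRNA in LNCaP than in IMR90, and a loss of protein in LNCaP. CTCF was profiled in LNCaP, in IMR90 with a standard protocol, and in IMR90 with a low-cell protocol, and H3K27ac and H3K4me3 in LNCaP only, with 2 libraries in each of 10 conditions. The 4 low-cell libraries and the 8 histone libraries took no part in choosing the members. Peak lists hold no read counts, and no source states a scaling of fold enrichment between libraries, so its level is compared within a library or beside the same comparison in other sites.

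CTCF is a zinc finger protein that binds a directional core motif, stops cohesin as it extrudes DNA loops and so marks loop anchors and domain boundaries. It is known as an insulator at imprinted genes and as a factor that sets promoter contacts in clustered gene families such as the protocadherins. A site loses its peak after siRNA when its enrichment falls below the caller's threshold, so an absent peak does not show absent binding.

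The core motif was found at most members, and 10 of them are shown because they ranked highest in IMR90 after CTCF siRNA by 1 of 2 measures, under the limits given here. Each line reads 5′ to 3′ on the strand of the motif, hg19, with the 14 bases that match the core CTCF consensus in capitals and 8 flanking bases on each side. The first 6 had a peak in all 4 low-cell libraries and the highest mean low-cell CTCF siRNA values among 102 of the 108 such members, taking 1 per chromosome. The last 4 had the highest ratio of CTCF siRNA to control fold enrichment with the standard protocol among members with a match.
CAPRIN2 site: ttctatttCCACTAGGTGGCGCtattgtct
ANKRD22 site: tgcggtttCCACTAGGGGGCAGcgcagcgt
PTK6 site: ccacacggACGCCAGGGGGCAGgcaaggac
BTBD2 site: ggtgatggCGTCTAGAGGGCGCtcgtcacc
PLEKHB1 site: cgcagtagCCACCAGGGGCCGCtaccggct
LPO site: cccaccttCCGCTAGAGGGCAGcagagctc
LMNTD1 site: ttggtttaCCACTAGAGGGCATtgttggca
COL21A1 site: atgattacCCACCAGAGGGCACcaaagcac
PCBP2 site: cagccagtCCACTAGGGGCCACtggtttcc
BCR site: cattgtctCCAGCAGAGGGGGCggttgggt

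The CAPRIN2 and ANKRD22 cores, at chr12:30997653-30997666 on the minus strand and chr10:90595556-90595569 on the plus strand, matched the consensus without a mismatch, as did the COL21A1 core at chr6:56224209-56224222, plus strand. The PLEKHB1 core at chr11:73372154-73372167 (minus), the LPO core at chr17:56327197-56327210 (plus), the LMNTD1 core at chr12:25589438-25589451 (plus), the PCBP2 core at chr12:53845635-53845648 (plus) and the BCR core at chr22:23516277-23516290 (plus) each had 1 mismatch. The PTK6 core at chr20:62169431-62169444 and the BTBD2 core at chr19:2019757-2019770, both on the plus strand, had 2 mismatches. ANKRD22, BTBD2, PLEKHB1, LPO, LMNTD1 and COL21A1 held their sites in introns. The CAPRIN2 and PCBP2 sites lay in introns of long non-coding RNA genes, and the PTK6 and BCR sites were intergenic.

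The members were reached in steps. Of the 33377 sites, 25924 had a strength below 20, 23155 of these had no peak in either LNCaP CTCF siRNA library, 14631 of those had a peak in both standard IMR90 control libraries, and 6402 (43.8% of the 14631) still had a peak in both standard IMR90 CTCF siRNA libraries. Over all LNCaP control sites, 78.6% had no peak after CTCF siRNA in LNCaP, and 62.2% of those with both IMR90 control peaks had both IMR90 CTCF siRNA peaks. The other sites set beside the members were 5208 moderate sites with a peak in both control libraries of both lines and none in the 4 CTCF siRNA libraries (lost in both lines), and 862 moderate sites with a peak in all 8 libraries (kept in both lines).

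The lengths of the lists differed with the lines. The LNCaP lists held 38018 and 46365 CTCF peaks with control siRNA, but 3732 and 7736 with CTCF siRNA. The standard IMR90 lists held 35719 and 36890 peaks with control siRNA and still 19180 and 18539 with CTCF siRNA. With the 4 standard CTCF siRNA lists shortened by p-value to the 3711 peaks of the shortest on these chromosomes, 273 sites met the rule, of which 137 were among the 6402 members. The standard IMR90 CTCF siRNA libraries also had more reads than the LNCaP ones, by the read numbers the paper states. By the paper, IMR90 cells also lost less CTCF mRNA. The loss in LNCaP, the longer IMR90 lists, the depth and the depletion cannot be told apart as the reason a site was a member. Histone regions lay over a start of all 10 LNCaP marker genes in all 8 histone libraries, among them KLK3 and FOXA1, and of 10 fibroblast markers over COL1A1 in all 8 and over 4 in none. IMR90 has no histone libraries, so its identity was not checked.

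The CTCF fold enrichment at the members was listed at lower values in the IMR90 CTCF siRNA libraries than in the control ones, as a description of the libraries that chose them. In control LNCaP cells the median fold enrichment was 11.7 in replicate 1 and 14.4 in replicate 2, and replicate 2 was the higher at 77.0% of members. In control IMR90 cells it was 16.3 and 16.8, and after CTCF siRNA 9.56 and 9.94. The median over members of the ratio of CTCF siRNA to control fold enrichment was 0.621, with quartiles of 0.470 and 0.824 and a range of 0.143 to 2.73. It was 0.620 from the replicate 1 libraries and 0.616 from the replicate 2 libraries. Both CTCF siRNA values lay below both control values at 4470 members (69.8%), and above both at 297 (4.64%). At the 862 sites kept in both lines the median ratio was 0.995, and 26.6% had both values below. The 273 sites that met the rule with lists of equal length, 137 of them members, had a median ratio of 1.07. They were chosen for the most significant IMR90 CTCF siRNA peaks.

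**Figure D1:**
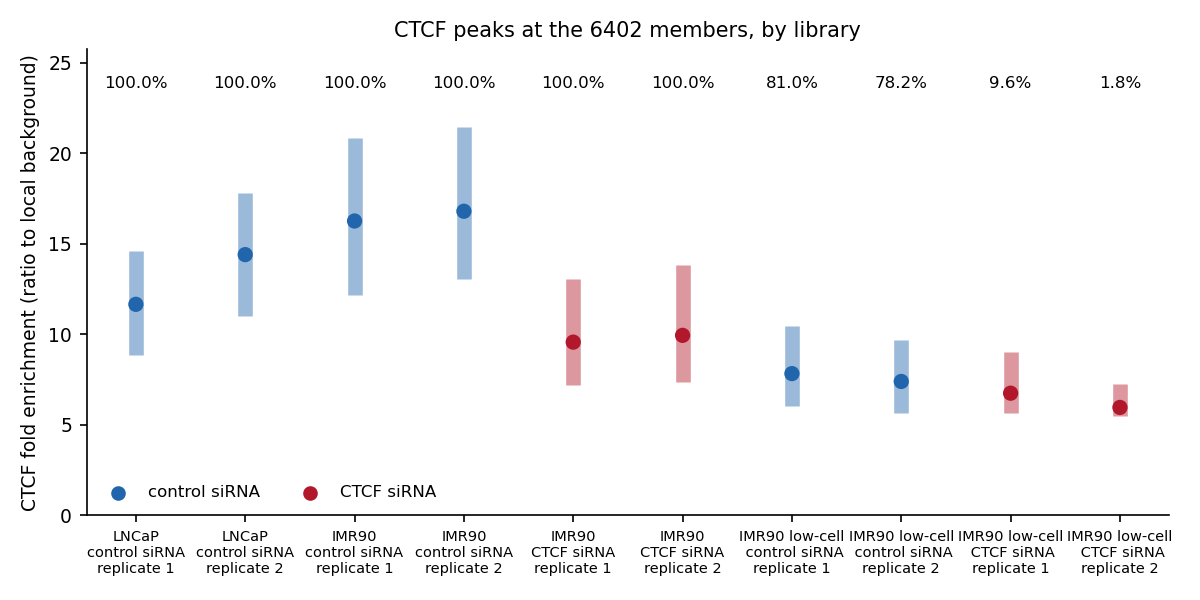
CTCF fold enrichment (ratio to local background) at the 6402 members in the 10 libraries where members had peaks; points are medians over the members with a peak, bars run from the lower to the upper quartile, and percentages at the top of the plot give the share of members with a peak. The IMR90 medians are 16.3 and 16.8 in control and 9.56 and 9.94 in CTCF siRNA cells, and in the low-cell libraries 81.0% and 78.2% of members have a peak in control and 9.59% and 1.81% in CTCF siRNA cells.

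Strength in control LNCaP had a median of 13.3 over the members, with quartiles of 10.4 and 16.1, against 9.27 in the sites lost in both lines and 16.1 in those kept in both. Membership became more frequent with strength. Among sites with no LNCaP CTCF siRNA peak and both IMR90 control peaks, members were 15.9% of 189 with a strength under 5, 25.5% of 5430 from 5 to 10, 49.5% of 5679 from 10 to 15 and 65.3% of 3333 from 15 to 20. The IMR90 ratio differed little between these classes, with medians of 0.620, 0.645, 0.622 and 0.598. Across the 6402 members the Spearman correlation of LNCaP strength with mean IMR90 control fold enrichment was 0.340, and that of the 2 IMR90 CTCF siRNA replicates with each other 0.650; the points of each are sites that share libraries. The 3 members nearest to the limit had strengths of 19.996, 19.992 and 19.990, and the 3 sites of the same pattern just above it 20.004, 20.004 and 20.007. The member at 19.992, 220 bp from a start of EPHB1, an ephrin receptor gene, had values of 21.2 and 18.8 in control LNCaP, 14.3 and 13.1 in control IMR90 and 15.8 and 12.2 after CTCF siRNA. Just above the limit, an intronic MX1 site had 18.3 and 21.7, then 12.9 and 19.5, and after CTCF siRNA 10.8 and 7.53.

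The low-cell libraries were used to ask whether the sites kept their peaks in IMR90 libraries outside the rule, and most did not. No source states whether these cells came from a separate transfection. A low-cell peak was present at 81.0% and 78.2% of members in the control libraries and at 9.59% and 1.81% after CTCF siRNA. The mean share was 79.6% ± 2.01 (SD, n = 2) in control and 5.70% ± 5.50 (SD, n = 2) after CTCF siRNA, and no CTCF siRNA library reached a control library. The difference of -73.9 percentage points gave p = 0.333 in an exact two-sided permutation test, the smallest p that 2 against 2 libraries allow. Of the 4589 members with both low-cell control peaks, 3996 (87.1%, 95% Wilson interval 86.1 to 88.0) had no peak in either low-cell CTCF siRNA library, against 71.1% over all LNCaP control sites with both low-cell control peaks. Another 485 had a peak in 1 of them and 108 (2.35%) in both, where the share over all such sites was 11.2%. Most of the 6402 members thus had no CTCF siRNA peak in these IMR90 libraries either, and they are called here by their rule. Of the 273 sites that met the rule with standard lists of equal length, 61.9% and 21.2% had a low-cell CTCF siRNA peak, against 98.2% and 97.8% with a low-cell control peak. The low-cell CTCF siRNA lists were short, with 5193 and 2057 peaks against 20383 and 19226 in control, and their part in the absent peaks was not tested.

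Members stood between the 2 comparison groups in the low-cell libraries. After CTCF siRNA, the sites lost in both lines had a low-cell peak at 0.173% in replicate 1 and at 0 of 5208 in replicate 2, which allows a share of up to 0.0576%. The sites kept in both lines had one at 71.3% and 36.9%. In both CTCF siRNA libraries the members were above the first group, by a mean of 5.61 percentage points, and below the second, with a mean difference of -48.4. Each difference gave p = 0.500 in an exact two-sided sign-flip permutation test, the smallest p that 2 libraries allow. The difference from the sites lost in both lines was 1.81 without low-cell CTCF siRNA replicate 1, 9.42 without replicate 2 and 38.8 with standard lists of equal length. The control libraries showed the same order, with 25.5% and 22.6% of the sites lost in both lines and 90.8% and 89.0% of those kept in both. The order against the sites lost in both lines also held within a class of standard IMR90 control fold enrichment. Low-cell control shares still differed in that class. With mean standard IMR90 control fold enrichment from 10 to 15, 76.6% and 72.6% of 1812 members had a low-cell control peak, against 33.6% and 31.4% of 1499 sites lost in both lines. In the same class 9.38% and 1.99% of members had a low-cell CTCF siRNA peak, but 0 of the 1499 sites lost in both lines did in either library, which allows a share of up to 0.200%. The 2241 sites with the members' pattern but a strength of 20 or more had low-cell CTCF siRNA shares of 8.79% and 1.25%, close to those of the members.

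**Figure D2:**
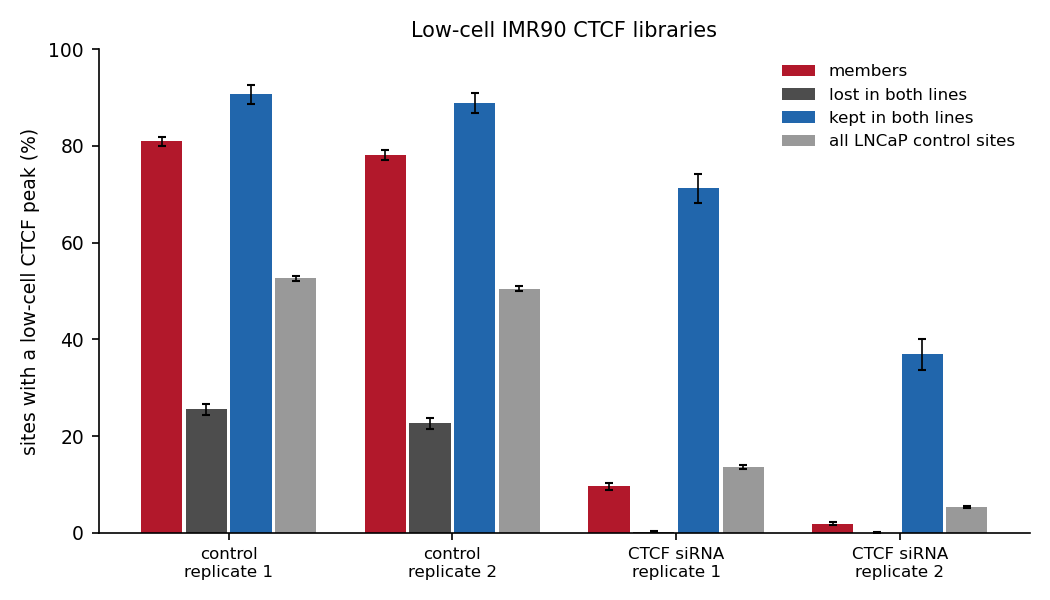
Share of sites (%) with a low-cell IMR90 CTCF peak in each of the 4 low-cell libraries, for the members, the moderate sites lost in both lines, the moderate sites kept in both lines and all LNCaP control sites; error bars are 95% Wilson intervals, which cover counting error only. Members fall from 81.0% and 78.2% in control to 9.59% and 1.81% after CTCF siRNA, where the sites kept in both lines stand at 71.3% and 36.9%.

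Members that kept more of their standard IMR90 signal kept low-cell peaks more often. Of the 1601 members with the lowest ratio, 0.562% and 0.0625% had a low-cell CTCF siRNA peak, and of the 1601 with the highest ratio 24.7% and 5.87%. Among the members with both low-cell control peaks, the median standard ratio was 0.616 where both low-cell CTCF siRNA peaks were absent, 0.896 where 1 was present and 1.04 where both were. The low-cell control signal rose in the same order, with median fold enrichments of 7.75, 9.52 and 10.9. The LNCaP strength did not, with medians of 13.6, 13.4 and 13.3.

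The 6 members shown with peaks in all 4 low-cell libraries differed widely in how they behaved with the standard protocol. Members on chromosome 8 were left out when these 6 were taken. At the CAPRIN2 site, 21429 bp from a start of this gene for an RNA-binding protein, fold enrichment was 19.9 and 16.5 in low-cell control and 24.1 and 9.33 after CTCF siRNA, but 13.7 and 15.6 against 7.15 and 5.36 with the standard protocol. At the ANKRD22 site it was 10.4 and 7.15 against 23.3 and 9.41 in the low-cell libraries, and 23.2 and 21.4 against 26.2 and 29.8 in the standard ones. The CAPRIN2 site was thus listed below its control values with the standard protocol, and the ANKRD22 site above its own. Over all members, both CTCF siRNA values lay below both control values at 69.8% and above both at 4.64%.

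The BTBD2 site had standard IMR90 values of 17.0 and 21.5 in control and 42.1 and 40.9 after CTCF siRNA, the second highest mean after siRNA among all members, and low-cell values of 10.9 and 9.34 against 16.2 and 11.6. At the PLEKHB1 site the standard values were 18.96 and 24.2 against 41.1 and 22.8, and the low-cell values 16.6 and 16.1 against 19.5 and 7.96. At the LPO site, in the gene for lactoperoxidase, they were 7.74 and 10.7 against 14.4 and 13.5, and 17.1 and 16.1 against 20.0 and 7.24. The CTCF siRNA values were above the control values in both protocols at BTBD2 only among these 3. A pick by the low-cell CTCF siRNA value favours this in the low-cell libraries. With the standard protocol, both CTCF siRNA values were above both control values at 4.64% of all members.

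The PTK6 site lay 645 bp from a start of PTK6, which encodes an intracellular tyrosine kinase, and was the single one of the 6 under both histone marks in all 8 LNCaP libraries. Its standard values were 5.27 and 15.5 in control and 14.8 and 17.5 after CTCF siRNA, with the control replicates farther apart than the groups. Its low-cell values were 14.2 and 23.7 against 20.9 and 9.41.

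**Figure D3:**
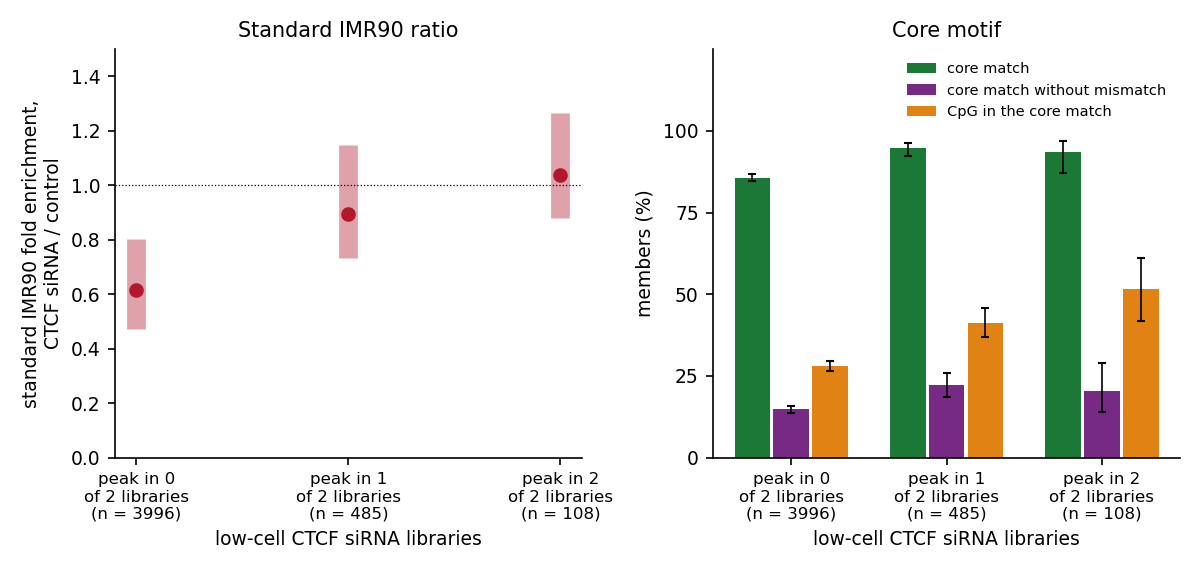
Members with both low-cell control peaks, split by the number of low-cell CTCF siRNA libraries with a peak (3996, 485 and 108 members). Left, ratio of CTCF siRNA to control fold enrichment with the standard IMR90 protocol, as median and quartiles; right, the share of members with a core match and with a match without mismatch, and the share of core matches that hold a CpG, with 95% Wilson intervals. The median ratio rises from 0.616 to 0.896 and 1.04, and the CpG share from 28.0% to 41.2% and 51.5%.

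By the mean of the 2 libraries, the highest standard IMR90 value after CTCF siRNA was found at an intronic SLC2A7 site, with 42.5 and 44.5 against 27.7 and 42.4 in control, SLC2A7 being a sugar transporter gene. An intergenic site 26752 bp from a start of IL37, a cytokine gene of the interleukin-1 family, had 43.5 and 39.1 against 20.8 and 22.7. A site in an intron of the long non-coding RNA gene LASTR had 37.4 and 44.4 against 24.2 and 28.0, and a site 13066 bp from CEP55, a gene of cytokinesis, 42.1 and 38.8 against 29.0 and 33.3. In control LNCaP these 4 sites were of moderate strength, from 8.07 at LASTR to 15.8 at the IL37 site. None of them had a peak in low-cell CTCF siRNA replicate 2, and 3 of them had one in replicate 1.

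The highest ratios of CTCF siRNA to control were 2.73 at the LMNTD1 site, 2.47 at the COL21A1 site, 2.45 at the PCBP2 site and 2.41 at the BCR site. The LMNTD1 values were 9.73 and 9.07 in control and 21.5 and 29.8 after CTCF siRNA. At COL21A1, a collagen gene, they were 7.93 and 9.39 against 21.0 and 21.8. At PCBP2, which encodes an RNA-binding protein, they were 12.5 and 12.2 against 27.7 and 33.0, and at the BCR site 7.92 and 8.80 against 21.4 and 18.9. At all 4, both CTCF siRNA values stood above both control values, which a pick by this ratio favours. Over all members this held at 4.64%. In the low-cell libraries the LMNTD1 and COL21A1 sites had a CTCF siRNA peak in replicate 1, at 6.03 and 4.15 against 9.16 and 7.58 in control replicate 1. The PCBP2 and BCR sites had none.

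The core CTCF motif, searched on both strands within 100 bp of the LNCaP summit with up to 2 mismatches, was present at 5206 members (81.3%, 95% Wilson interval 80.3 to 82.3). It was present at 66.5% of the sites lost in both lines, 87.6% of those kept in both and 74.0% of all LNCaP control sites, and at 4.51% of windows of the same length 1000 bp from the members. A match without mismatch was found at 12.6% of members, against 5.41% and 27.4% in the same 2 groups and 11.8% over all sites. The motif lay on the plus strand at 51.1% of members, its centre a median of 15.5 bp from the summit, and the 5206 matches held 2254 different core sequences. A sequence has no replicates, so these shares carry no test.

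A CpG dinucleotide was part of the core at 28.8% of the members with a match (95% Wilson interval 27.6 to 30.1), at 16.1% of the sites lost in both lines and at 52.3% of those kept in both. Over all sites it was 30.1%. Most of these CpGs began at position 12 of the core, counted from 1 at its 5′ end, where the share was 23.6% in members, 12.04% in sites lost in both lines and 46.8% in sites kept in both. DNA methylation was not analysed here. The order of the 3 groups held within classes of standard IMR90 control fold enrichment. From 15 to 20, a CpG was present in 27.5% of 1699 member cores, in 8.41% of 214 cores of sites lost in both lines and in 43.9% of 189 cores of sites kept in both.

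**Figure D4:**
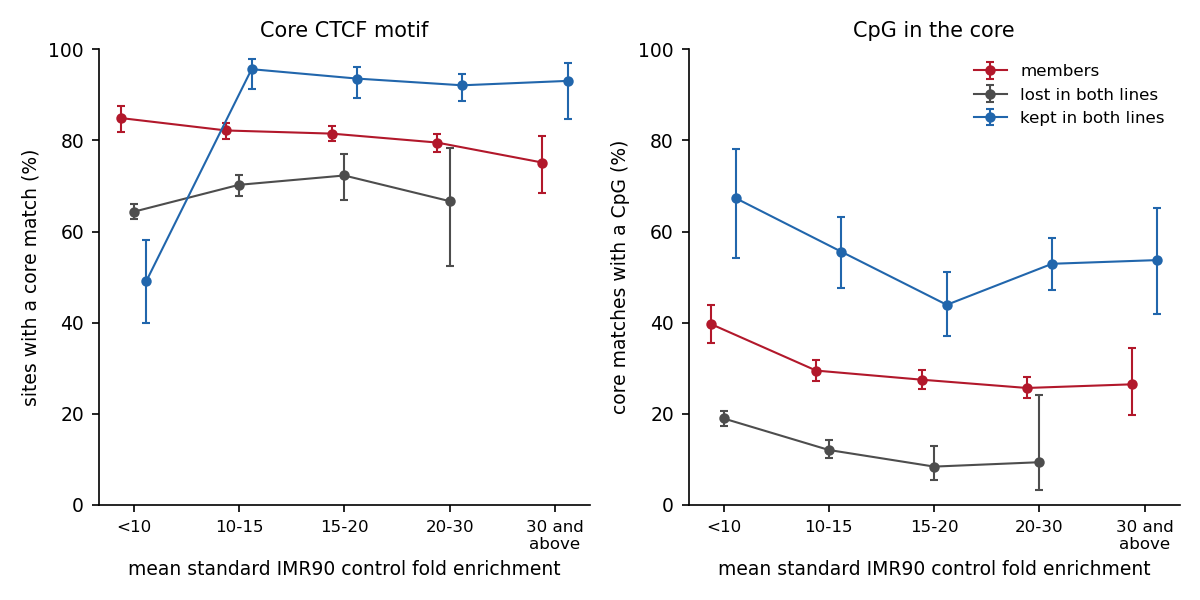
Share of sites with a core CTCF match (left, %) and share of core matches holding a CpG (right, %), by class of mean standard IMR90 control fold enrichment, for members and for moderate sites lost or kept in both lines; error bars are 95% Wilson intervals, and classes with under 20 sites are left out. From 15 to 20 the CpG shares are 27.5% in members, 8.41% in sites lost in both lines and 43.9% in sites kept in both; below 10 the sites kept in both lines have the lowest share with a core match, 49.1%.

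Among the members themselves, the core went with low-cell peaks but not with the standard IMR90 control level. The median of that level was 16.3 in members with a match without mismatch and 17.0 in members without a match. Low-cell control peaks were present at 93.3% and 92.7% of the 808 members with a match without mismatch, and at 63.0% and 61.5% of the 1196 without a match. After CTCF siRNA the low-cell shares were 16.3% and 2.72% against 3.01% and 0.669%. Members with a CpG in the core had low-cell CTCF siRNA peaks at 16.5% and 3.73%, and those with a core but no CpG at 8.93% and 1.40%, so the members with a CpG were higher in both libraries. The median standard IMR90 ratio was 0.704 with a CpG and 0.612 without. The median standard control level was lower with a CpG, 15.8 against 16.9. Low-cell control peaks were more frequent with a CpG, at 87.2% and 84.2% against 84.3% and 81.1%.

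Members lay mainly away from promoters. By GENCODE on hg19, 47.7% of their summits were in introns of protein-coding genes, 35.5% were intergenic, 9.72% were in introns and 1.75% in exons of long non-coding RNA genes, 3.95% were in UTRs and 1.41% in coding exons. A protein-coding transcription start was within 1000 bp at 526 members (8.22%, 95% Wilson interval 7.57 to 8.91), against 8.199% of the sites lost in both lines, 5.22% of those kept in both and 7.68% of all sites. The median distance to such a start was 21394.5 bp, against 27017.5 and 30601 bp in the same 2 groups. The sites kept in both lines were intergenic more often than members, at 52.8%. The 526 members at promoters had a core match less often than the others, at 65.6% against 82.7%.

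The nearest site kept in both LNCaP CTCF siRNA libraries was a median of 283292 bp from a member, and 14.4% of members had one within 50000 bp. The corresponding values were 300714 bp and 14.4% for sites lost in both lines and 268110 bp and 16.0% over all sites. Without LNCaP CTCF siRNA replicate 1, the smaller of the LNCaP CTCF siRNA lists, the median fell to 117862 bp. By chromosome, members made up from 13.1% of the sites on chromosome 21 to 29.0% on chromosome 13. On chromosome X they were 27.01%, but of the sites with no LNCaP CTCF siRNA peak and both IMR90 control peaks they were 45.1% there, near the 43.8% over all chromosomes.

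Of 2189 windows of 1 Mb with a member, the median held 3. The most, 17 of 34 sites, lay in chr19:47000001-48000000, around DACT3, BBC3, PRKD2, STRN4 and SLC1A5, and 2 of the 34 were kept in both LNCaP CTCF siRNA libraries. The next held 13 of 35 sites in chr17:38000001-39000000, around the nuclear receptor genes RARA, THRA and NR1D1 and the topoisomerase gene TOP2A. The next, chr5:140000001-141000000, held 12 of 56 sites and the gamma protocadherin genes.

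Gene lists were read against the 43.8% of sites that became members among those with no LNCaP CTCF siRNA peak and both IMR90 control peaks, counting summits in a gene or within 10000 bp of it. The clustered protocadherins had 10 members of 12 such sites, the LNCaP luminal genes 9 of 15, the signalling ligands, receptors and inhibitors 23 of 44, the fibroblast and mesenchymal genes 13 of 25 and the chromatin writers, erasers and remodellers 32 of 62. The cell cycle, growth and tumour suppressor genes had 24 of 59, the CTCF and cohesin genes 8 of 20, the HOX clusters 3 of 8 and the imprinted genes 5 of 16. The kallikreins had 1 such site, which was not a member. The counts are small and carry no test.

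At the gamma protocadherins, a family of cell adhesion genes with alternative promoters, 6 of the 20 named members lay within 110 bp of a start. The PCDHGB7 site had IMR90 values of 13.2 and 18.5 in control and 20.1 and 19.5 after CTCF siRNA. The PCDHGB4 site had 6.85 and 7.74 against 20.1 and 11.7, and the PCDHGB1 site 14.7 and 14.4 against 14.1 and 16.8. At PCDHGA3 they were 14.7 and 6.91 against 11.5 and 10.6, at PCDHGB3 8.43 and 8.93 against 8.13 and 7.97, and at PCDHGA1 10.6 and 14.3 against 6.47 and 8.78. Control and CTCF siRNA values did not overlap at PCDHGB7, PCDHGB4, PCDHGB3 and PCDHGA1, higher after siRNA at the first 2 and lower at the last 2. Over all members, both CTCF siRNA values were above both control values at 4.64% and below both at 69.8%. These libraries also chose the members. The PCDHGB7 site had no low-cell control peak but one in each low-cell CTCF siRNA library, at 7.14 and 5.48, and was 1 of 6 members with a low-cell peak after CTCF siRNA and none in either control library. None of the 6 named gamma protocadherin sites had a core match within 100 bp of the summit. Reads that mapped to several positions were discarded by the authors, which bears on such near-identical genes.

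Among the genes of signalling, the EFNB2 site, 963 bp from a start of this ephrin ligand gene, had IMR90 values of 24.9 and 27.7 in control and 24.4 and 26.6 after CTCF siRNA. It kept a peak in all 4 low-cell libraries, at 19.9 and 12.03 in control and 9.17 and 6.12 after CTCF siRNA. FGF7, a fibroblast growth factor gene, had 20.4 and 18.5 against 17.1 and 16.3 at a site 1115 bp from its start. WNT5A, which encodes a Wnt ligand, had 12.2 and 5.77 against 8.13 and 8.50.

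Of the LNCaP luminal genes, FOXA1, which encodes a pioneer transcription factor, had a member in its intron, 876 bp from a start. Its values were 11.5 and 11.1 in control LNCaP, 20.3 and 16.2 in control IMR90 and 23.9 and 23.9 after CTCF siRNA. It kept peaks in the low-cell libraries, at 12.8 and 13.6 in control and 7.30 and 10.1 after CTCF siRNA, and lay under both histone marks in all 8 LNCaP libraries. Of the fibroblast genes, ACTA2, a smooth muscle actin gene, had a member 1075 bp from a start, inside STAMBPL1, with no peak in any low-cell library. Its values were 34.0 and 28.9 in control IMR90 and 10.7 and 8.54 after CTCF siRNA, a ratio of 0.306.

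Sites at 3 genes that write chromatin marks had ratios from 0.535 to 0.698. DNMT3B, a DNA methyltransferase gene, had a member 1203 bp from a start with 24.5 and 27.1 in control and 14.8 and 13.01 after CTCF siRNA. EHMT1, an H3K9 methyltransferase gene, had 26.8 and 18.6 against 7.81 and 16.5, and KMT2B, an H3K4 methyltransferase gene, 13.2 and 20.2 against 14.8 and 8.50. The groups did not overlap at DNMT3B and EHMT1, and did at KMT2B. Over all members, both CTCF siRNA values lay below both control values at 69.8%, and the median ratio was 0.621. At PDS5A, which encodes a cohesin regulator, the values were 17.3 and 24.8 against 17.7 and 13.8, and at an intronic IGF2 site, the imprinted growth factor gene, 17.7 and 18.6 against 11.5 and 7.97. These 5 sites had no low-cell CTCF siRNA peak. Over the 20 named sites at listed genes the ratio ran from 0.306 at ACTA2 to 2.18 at PCDHGB4, and the others, at TAGLN, ARID1B, PIK3CA and SNAI2, had 0.644, 0.742, 0.620 and 0.598.

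The histone libraries were used to ask whether the chromatin at the members changed in LNCaP, where their CTCF peak was lost. H3K27ac, which marks active enhancers as well as promoters, covered 20.4% and 16.3% of members in control and 18.6% and 21.7% after CTCF siRNA, so the groups overlapped. The mean difference was 1.80 percentage points (p = 0.667, exact permutation test). H3K4me3, a mark of active promoters, covered 12.4% and 15.0% in control and 12.2% and 15.7% after CTCF siRNA, a difference of 0.305 percentage points (p = 1.00, exact permutation test). With 2 against 2 libraries the smallest p is 0.333, so differences of this size could not be called. The H3K27ac difference turned to -0.242 without control replicate 2. The H3K4me3 difference turned to -0.9997 without control replicate 1, to -1.48 without CTCF siRNA replicate 2 and to -0.453 with histone lists of equal length, where the H3K27ac difference was 0.453. Counting regions within 1000 bp of a site gave 3.55 for H3K27ac and 1.36 for H3K4me3.

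Against the sites lost in both lines, members had slightly more of both marks in all 4 libraries of each, with means of 19.2% against 18.4% for H3K27ac and 13.8% against 12.96% for H3K4me3. Both gave p = 0.13 in an exact sign-flip permutation test, the smallest p that 4 libraries allow. The direction turned in each without IMR90 CTCF siRNA replicate 1, to -1.04 and -1.28 percentage points, and for H3K4me3 also without LNCaP control CTCF replicate 2, to -0.577. With standard CTCF siRNA lists of equal length the differences were 8.15 and 6.36 percentage points. The sites kept in both lines had more H3K4me3 than members in all 4 libraries, at 18.0% and 24.7% in control and 22.6% and 33.1% after CTCF siRNA. At members within 1000 bp of a start, 59.3% had H3K27ac and 68.6% had H3K4me3 in all 4 libraries, against 8.53% and 5.14% of the other members.

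**Figure D5:**
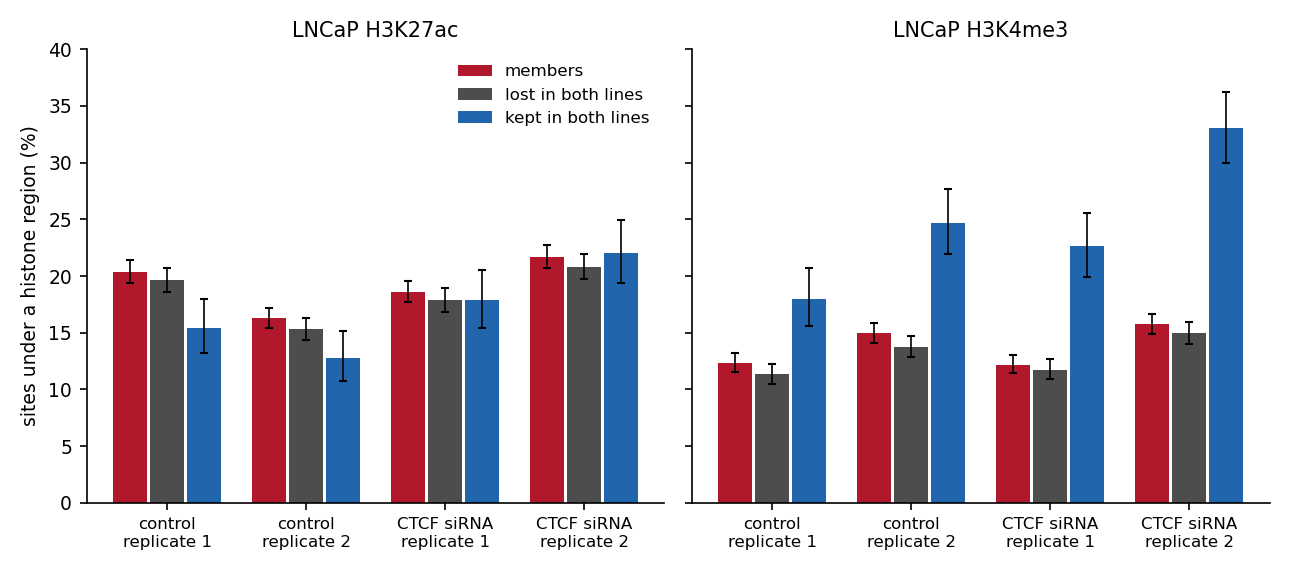
Share of sites (%) under an H3K27ac (left) or H3K4me3 (right) region in each LNCaP library, for members and for moderate sites lost or kept in both lines; error bars are 95% Wilson intervals, which cover counting error only. Control and CTCF siRNA libraries overlap at the members for both marks, and the sites kept in both lines have the most H3K4me3 in every library, from 18.0% to 33.1%.

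Single members with an H3K27ac difference in both replicates were about as frequent as over all sites. H3K27ac was present in both control and neither CTCF siRNA library at 75 members (1.17%), against 1.03% of all sites, and the reverse held at 127 (1.98%), against 2.07%. For H3K4me3 the counts were 41 (0.640%) against 0.500%, and 43 (0.672%) against 0.950%. The last share was lower at members, with a 95% Wilson interval of 0.499 to 0.903.

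The member with H3K27ac in control only and the highest IMR90 CTCF siRNA level lay in an intron of PRR5, a gene of the mTORC2 complex, with CTCF values of 55.3 and 55.4 in control IMR90 and 32.8 and 30.5 after CTCF siRNA. A member in an exon of DACT3-AS1, 1014 bp from a start of the Wnt antagonist gene DACT3, had H3K27ac in control only. It had H3K4me3 in all 4 libraries, and CTCF values of 40.1 and 38.1 against 28.7 and 27.6. Both sites had the 2 CTCF siRNA values below the 2 control values, as did 69.8% of all members.

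A member 790 bp from a start of NES, the gene of the intermediate filament nestin, had H3K4me3 in control only, with CTCF values of 27.9 and 31.6 in control IMR90 and 17.6 and 21.2 after CTCF siRNA. In the other direction, an intronic P2RX4 site, in the gene of an ATP-gated ion channel, had H3K27ac after CTCF siRNA only, and a site 41 bp from a start of GNAI2, a G protein subunit gene, H3K4me3 only then. The intronic NQO2 site, in a quinone reductase gene, had a region of both marks after CTCF siRNA only. It also had a peak in all 4 low-cell libraries, at 12.3 and 13.8 in control and 15.2 and 7.96 after CTCF siRNA, and standard IMR90 values of 10.5 and 9.34 against 15.3 and 15.9.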

How the data were processed

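CTCF peaks and histone regions of 20 ChIP-seq libraries were used, grouped by the sample labels, with 2 libraries per condition. Per the methods, standard experiments were biological duplicates; no source says so for the low-cell ones, whose p-values may measure technical spread. The authors used Bowtie on hg19 for the standard libraries, removing duplicate and multiply mapped reads, and BWA for the low-cell ones, and called peaks per library with MACS2 and regions with PeakRanger. Use of an input library is not given in the sources used here. The deposited CTCF lists give fold enrichment as a ratio, and p-values and q-values as −log10, with the largest q-value 0.0499. The deposited histone lists by the authors carry a score of unstated meaning, used only to rank regions. Column values were used as deposited.

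Peak and site overlapped when sharing at least 1 bp. Summits were annotated with GENCODE 44 on hg19 and the core CTCF consensus (14 bases) was searched in the reference sequence of 201 bp. Intervals of shares are 95% Wilson intervals for counting error alone, and a count of 0 allows up to 3 sites of the total. Libraries, not sites, were the replicates in the exact permutation tests, all two-sided. Members, gene lists and tests were chosen with earlier results of these data known. Named sites were the 6 strongest in the low-cell CTCF siRNA libraries with all 4 low-cell peaks (1 per chromosome, chromosome 8 left out), the 5 with the highest IMR90 CTCF siRNA value or ratio, the 20 strongest within 2500 bp of a start of a listed gene, those nearest the strength limit, up to 5 per histone pattern, and the 3 fullest windows of 1 Mb; which of these are described was decided after their values were seen. Site building, the motif search and the tests were tested on simulated data. Alternatives were other overlaps, q-values, strengths, list lengths, distances and mismatches, and leaving out each library. Python 3.11.15, numpy 2.4.6, pandas 2.3.3, scipy 1.17.1, pysam 0.24.0 and matplotlib 3.10.9 were used.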

Additional observations from a re-analysis of the deposited data

How the results depend on the processing

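Of 214 values recomputed over 13 results, 180 were counted as unchanged. For the results with a test this means the same direction only, whatever the size. For the others it means a size near the reported one. Strength below 15 left 4227 members, turned the H3K27ac difference between members and sites lost in both lines to -0.0926 percentage points, gave a core motif difference of -1.55 against sites kept in both lines and an IMR90 ratio of 0.632; strength below 25 gave a ratio of 0.618. With the standard CTCF siRNA lists at equal length, members numbered 273, the core motif difference against sites lost in both lines was 11.6 and the IMR90 ratio 1.07, since this keeps only the most significant IMR90 peaks. The low-cell treatment difference was then -56.4, the low-cell CTCF siRNA difference 38.8 against sites lost in both lines and -34.3 against sites kept in both, and members minus sites lost in both lines 8.15 for H3K27ac and 6.36 for H3K4me3. Histone lists of equal length turned the H3K4me3 treatment difference to -0.453 and left 0.453 for H3K27ac; regions within 1000 bp gave 1.36 and 3.55, and 1.57 and 1.86 for members minus sites lost in both lines. Up to 1 mismatch gave a core motif difference of -19.1 against sites kept in both lines, a promoter limit of 2500 bp a share of 13.9%, a q-value of at most 0.001 an IMR90 ratio of 0.623, and −log10 q-values in place of fold enrichment 0.511. The causes of the other changes were not tested.

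Leaving out each library in turn gave 5961 to 8077 members, low-cell treatment differences of -77.8 to -69.3 percentage points, differences in the low-cell CTCF siRNA share of 1.81 to 9.71 against sites lost in both lines and -61.8 to -32.8 against sites kept in both, core motif differences of 11.3 to 17.9 and -8.48 to -4.70, promoter shares of 7.60% to 9.18%, IMR90 ratios of 0.592 to 0.656 and distances of 117862 to 294068 bp. The treatment difference ranged from -0.242 to 3.85 for H3K27ac, turning without control replicate 2, and from -1.48 to 2.09 for H3K4me3, turning to -0.9997 without control replicate 1 and to -1.48 without CTCF siRNA replicate 2. Members minus sites lost in both lines ranged from -1.04 to 2.29 for H3K27ac and from -1.28 to 2.57 for H3K4me3, turning in both without IMR90 CTCF siRNA replicate 1 and in H3K4me3 also, to -0.577, without LNCaP control CTCF replicate 2.

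With the replicate number as a block, the low-cell treatment difference stayed -73.9 percentage points (p = 0.500, exact sign-flip permutation test) and no other call changed. The numbers did not clearly pair the libraries: across members, the correlation of replicate 1 minus 2 between control and CTCF siRNA was -0.0118 for low-cell CTCF, -0.0339 for H3K27ac and 0.176 for H3K4me3. Presence of a peak cannot show how far binding fell, and the lists give no depth. The paper's reporting summary does state read numbers, which were lowest among the CTCF libraries in LNCaP CTCF siRNA replicate 1. The part of depth in the absent peaks was not tested.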
